A study of Mus musculus with 6 samples.

Results

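Genes of glycolysis and genes that low oxygen induces were followed through 6 Affymetrix arrays of mouse CD4-CD8- (double-negative, DN) fetal thymus cells. The list held 36 genes of known role: glucose and lactate transporters, glycolytic enzymes, regulators of glycolysis, oxygen sensors and other targets of the hypoxia response. Each gene was read from its brightest probe set on average, among those with exactly 1 gene symbol. In this way 32 of the 36 genes were measured, among 12393 genes in all. Gpi1, Eno1 and Pfkfb4 had no probe set under their symbol and Bnip3l had only probe sets shared with other genes, so these 4 are not analysed here.

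DN cells came from C57BL/6 thymus lobes taken at day 15 of gestation and cultured for 6 days, to an age of 21 days post coitum. The medium held 10 nM TCDD (2,3,7,8-tetrachlorodibenzo-p-dioxin, a ligand of the aryl hydrocarbon receptor, AHR) or its solvent, dioxane (0.1%, a concentration given only for the thymocytes). The groups were DN emigrants, which had left the lobes, with TCDD (2 arrays) and with dioxane (2 arrays), and DN thymocytes from inside the lobes with TCDD (1 array) and with dioxane (1 array). All carried the same C57BL/6 strain background and no engineered allele is named. Cells were pooled before RNA extraction, and no label says that the emigrant arrays numbered 1 and 2 came from separate cultures, so their spread may be technical. CD4 and CD8 beads enriched the cells to over 95% by flow cytometry, and such beads leave behind any other cell that carries neither marker.

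Glycolysis splits glucose to pyruvate in the cytosol, and lactate dehydrogenase turns pyruvate to lactate when it is not burned in mitochondria. Under low oxygen the factor HIF1A escapes hydroxylation and degradation, pairs with ARNT and binds short sites with the core ACGTG or GCGTG. It then raises transporters, most glycolytic enzymes and genes that limit respiration. ARNT is also the partner of ligand-bound AHR, whose sites hold the core GCGTG. DN thymocytes that pass the pre-T-cell receptor stage take up glucose and divide, and Slc2a1 is their best known glucose transporter.

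Both cores were counted in the promoters of the genes. In RefSeq promoters (GRCm38.p6, 250 bases before to 50 after the start of the gene), 31 of the 32 measured genes were matched; Slc2a3 was not. ACGTG, on either strand, stood in 24 of the 31 genes (77.4%), beside 26.9% of the 9882 tested genes with a promoter. GCGTG, on either strand, stood in 21 genes (67.7%), beside 50.2%, and at least 1 of the 2 cores stood in 29 (93.5%), beside 61.6%. The palindrome CACGTG, which holds ACGTG on both strands, was in 6 genes (19.4%), beside 10.8%. Among the glycolytic enzymes 9 of 14 held ACGTG (64.3%), and among the other members 15 of 17 did (88.2%). The members' promoters also had more G and C, with a median of 64.7% beside 59.3%. The list was chosen by known role, targets of the hypoxia response among them, so the higher shares may follow from that choice. A gene counted if any of its promoters held the core. The members had 45 promoters for 31 genes, beside 12559 for the 9882 tested genes. These are matches of letters and no evidence of binding.

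The promoters of 5 genes are shown because the values described below turn on them: the transporters Slc2a1 and Slc16a1, P4ha2, Ldha and Bnip3. They lie at chr4:119108495-119108794 (plus strand), chr3:104638414-104638713 (plus), chr11:54100674-54100973 (plus), chr7:46845554-46845853 (plus, the first of 2 listed for the gene) and chr7:138909457-138909756 (minus). Each is written 5′ to 3′ on the gene's strand, and capitals mark the 2 cores on either strand, joined where they overlap. On the opposite strand the first core reads CACGT, and the reverse of the AHR core reads CACGC.
Slc2a1: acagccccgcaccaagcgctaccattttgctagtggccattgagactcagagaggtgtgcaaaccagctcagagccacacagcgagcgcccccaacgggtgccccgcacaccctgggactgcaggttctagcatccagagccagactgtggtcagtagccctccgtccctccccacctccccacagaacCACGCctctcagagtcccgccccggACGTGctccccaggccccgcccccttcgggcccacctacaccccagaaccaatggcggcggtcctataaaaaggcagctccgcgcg
Slc16a1: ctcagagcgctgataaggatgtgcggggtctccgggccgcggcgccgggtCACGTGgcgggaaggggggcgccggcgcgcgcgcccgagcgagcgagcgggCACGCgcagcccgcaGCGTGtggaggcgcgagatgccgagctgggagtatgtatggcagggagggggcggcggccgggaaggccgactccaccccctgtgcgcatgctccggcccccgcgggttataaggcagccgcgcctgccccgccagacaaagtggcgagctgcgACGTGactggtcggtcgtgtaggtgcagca
P4ha2: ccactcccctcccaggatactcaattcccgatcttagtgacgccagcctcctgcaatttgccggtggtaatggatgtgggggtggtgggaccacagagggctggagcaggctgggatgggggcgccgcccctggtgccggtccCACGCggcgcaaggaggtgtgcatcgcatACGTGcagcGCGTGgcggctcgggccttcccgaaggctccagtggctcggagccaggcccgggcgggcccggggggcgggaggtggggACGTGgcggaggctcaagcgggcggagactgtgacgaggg
Ldha: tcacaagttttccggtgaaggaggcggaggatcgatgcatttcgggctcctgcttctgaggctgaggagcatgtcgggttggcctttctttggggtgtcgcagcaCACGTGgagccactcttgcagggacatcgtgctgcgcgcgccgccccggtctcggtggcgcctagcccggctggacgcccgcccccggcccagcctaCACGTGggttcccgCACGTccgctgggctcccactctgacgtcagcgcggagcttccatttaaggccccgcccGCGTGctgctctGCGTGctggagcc
Bnip3: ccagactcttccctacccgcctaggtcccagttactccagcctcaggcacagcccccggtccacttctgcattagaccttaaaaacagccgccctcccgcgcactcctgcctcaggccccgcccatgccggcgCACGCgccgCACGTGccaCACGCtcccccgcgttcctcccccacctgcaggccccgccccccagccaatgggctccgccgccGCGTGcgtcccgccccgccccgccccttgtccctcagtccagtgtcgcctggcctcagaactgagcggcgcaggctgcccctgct
Slc2a1 and P4ha2 each held both cores, and Slc16a1, Ldha and Bnip3 also held the palindrome. Among the other members with 1 sign in all 3 pairs, Pfkp, Pdk1 and Ldhb held no ACGTG, and Hk2 held no GCGTG. Ddit4 and Vegfa, the latter in only 1 of its listed promoters, held both cores.

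Levels are given in log2 units as the authors deposited them, so that 1 unit is 2-fold. As a guide to background, the highest of 27 bacterial control probe sets lay between 4.32 and 4.92 on the 6 arrays. Of the 32 genes, 23 were above it on every array. Slc2a1, Slc16a1, Pfkfb3, Vegfa and P4ha2 were at or under it on some arrays. Slc16a3, Aldoc, Eno2 and Adm were at or under it on all 6 in the probe set used, so that only a bound can be given for them. Array medians lay between 4.84 and 4.88.

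The labelled cells were checked against marker lists. The median level of 13 measured DN T-lineage genes was 4.90 and 6.35 in emigrants with TCDD and 5.56 and 7.68 in emigrants with dioxane (arrays 1 and 2). It was 8.47 in thymocytes with TCDD and 9.14 in thymocytes with dioxane. The 15 macrophage and dendritic genes had medians of 9.13 and 9.13 in emigrants with TCDD, 8.56 and 6.69 in emigrants with dioxane, 5.49 in thymocytes with TCDD and 5.19 in thymocytes with dioxane. Emigrants numbered 1 also had high neutrophil and mast cell genes (medians of 9.57 with TCDD and 8.04 with dioxane) and erythroid genes (7.13 and 7.05), and the other 4 arrays lay between 4.89 and 6.16 for the one list and between 4.32 and 4.74 for the other. The emigrant arrays thus went against their label in part. The values of the present genes in them come from whatever mixture of cells the arrays hold, and in such bulk samples fewer cells of a type and less RNA per cell cannot be told apart. The part of these markers in the results was not tested.

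**Figure D1:**
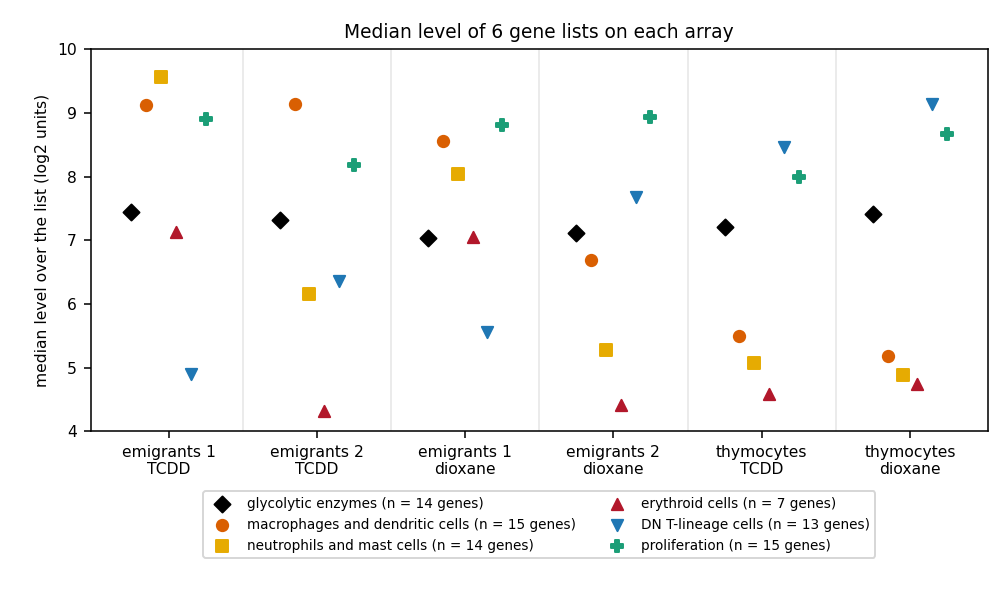
Median level (log2 units, vertical axis) of the glycolytic enzymes and of 5 marker lists on each of the 6 arrays. The enzyme median lay between 7.04 and 7.44, and some single enzymes moved more, such as Pkm between 4.93 and 6.85. The macrophage and dendritic median ran between 5.19 and 9.13 and the DN T-lineage median between 4.90 and 9.14.

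Cyp1a1, a detoxifying monooxygenase and the classical AHR target, served as a check of the treatment labels. Its level was 4.22 and 5.98 in emigrants with TCDD against 3.96 and 3.84 with dioxane, and 7.88 in thymocytes with TCDD against 3.99 with dioxane. In emigrants numbered 1 both values were under the highest control. Cyp1b1, a related target, was 5.90 and 8.95 in emigrants with TCDD against 4.66 and 4.72 with dioxane, and 10.35 against 6.73 in thymocytes. Both genes were higher with TCDD in each pair, but the pair numbered 1 was the weakest. Of 9 measured AHR targets, 5 were higher with TCDD in emigrants numbered 1, 9 in those numbered 2 and 7 in thymocytes. Tiparp, a target that restrains AHR, had 6.66 and 9.82 in emigrants with TCDD against 6.66 and 6.33 with dioxane, and 9.35 against 6.29 in thymocytes.

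TCDD and dioxane were first compared over all 3 pairs of arrays, with cell source in a limma model fitted across all 12393 genes. No gene passed an adjusted p of 0.05 (0% called), and the smallest adjusted p was 0.483 over all genes and 0.811 among the members. At an unadjusted p under 0.05 stood 4 of 32 members: Slc2a1 and P4ha2 higher with TCDD, Slc16a1 and Ldhb lower. The background shares at that threshold were 5.32% in either direction (659 genes), 2.69% higher and 2.63% lower. What follows are therefore values, and none of them is a call. By pairs, 5 members were higher with TCDD in all 3 (15.4% of all genes were) and 5 were lower in all 3 (17.4% of all genes were). The first were Slc2a1, Hk2, Pfkp, Pdk1 and P4ha2, and the second Slc16a1, Ldha, Ldhb, Vegfa and Ddit4. The signal of the actin control probe sets at the 3′ end over the 5′ end, a guide to RNA length, was higher with TCDD in each pair. It was 3.77 and 3.36 log2 units in emigrants with TCDD against 3.06 and 3.01 with dioxane, and 4.15 against 3.48 in thymocytes. The same measure for Gapdh did not follow treatment, with 5.60 and 4.75 in emigrants with TCDD against 4.75 and 4.69 with dioxane, and 5.86 against 6.10 in thymocytes. The part of RNA length in the members' values was not tested.

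The glucose importer Slc2a1 (GLUT1) had levels of 6.32 and 6.59 in emigrants with TCDD against 3.68 and 5.16 with dioxane, and 5.68 in thymocytes with TCDD against 5.30 with dioxane. All 3 TCDD arrays were above all 3 dioxane arrays, a pattern met by 3.47% of all genes. In emigrants numbered 1 the dioxane value was under the highest control, so the difference is at least 4.01-fold, and in those numbered 2 it was 2.70-fold. The limma difference over the 3 pairs was 1.48 ± 0.51 (SE; unadjusted p = 0.0307, adjusted p = 0.888). It was 0.91 without emigrants with dioxane number 1. Of the other 2 probe sets of the gene, 1 had the opposite sign in thymocytes and neither did in emigrants. Their differences in emigrants numbered 1 and 2 were smaller, at 0.78 and 0.19 in 1 probe set and 0.56 and 0.86 in the other. In both of these probe sets the treatments overlapped over the 6 arrays.

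Slc16a1 (MCT1), which carries lactate and pyruvate across the plasma membrane, ran the other way. Its levels were 6.44 and 4.30 in emigrants with TCDD against 7.61 and 7.62 with dioxane, and 4.37 in thymocytes with TCDD against 7.73 with dioxane. The 3 dioxane arrays lay between 7.61 and 7.73 and all TCDD arrays were below them, a pattern that 4.61% of all genes met. In thymocytes and in emigrants numbered 2 the TCDD value was under the highest control, which makes the gene at least 9.61-fold and at least 9.73-fold lower with TCDD. In emigrants numbered 1 it was 2.26-fold lower. The limma difference was -2.62 ± 0.59 (SE; unadjusted p = 0.00527, adjusted p = 0.811). The gene has a single probe set, so no second reading of it exists on the array.

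The neuronal-type glucose importer Slc2a3 (GLUT3) had 7.92 and 7.09 in emigrants with TCDD against 7.53 and 7.07 with dioxane, and 8.16 in thymocytes with TCDD against 8.34 with dioxane. These groups overlapped. The lactate exporter Slc16a3 (MCT4), a HIF target in many cells, was under the highest control everywhere.

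**Figure D2:**
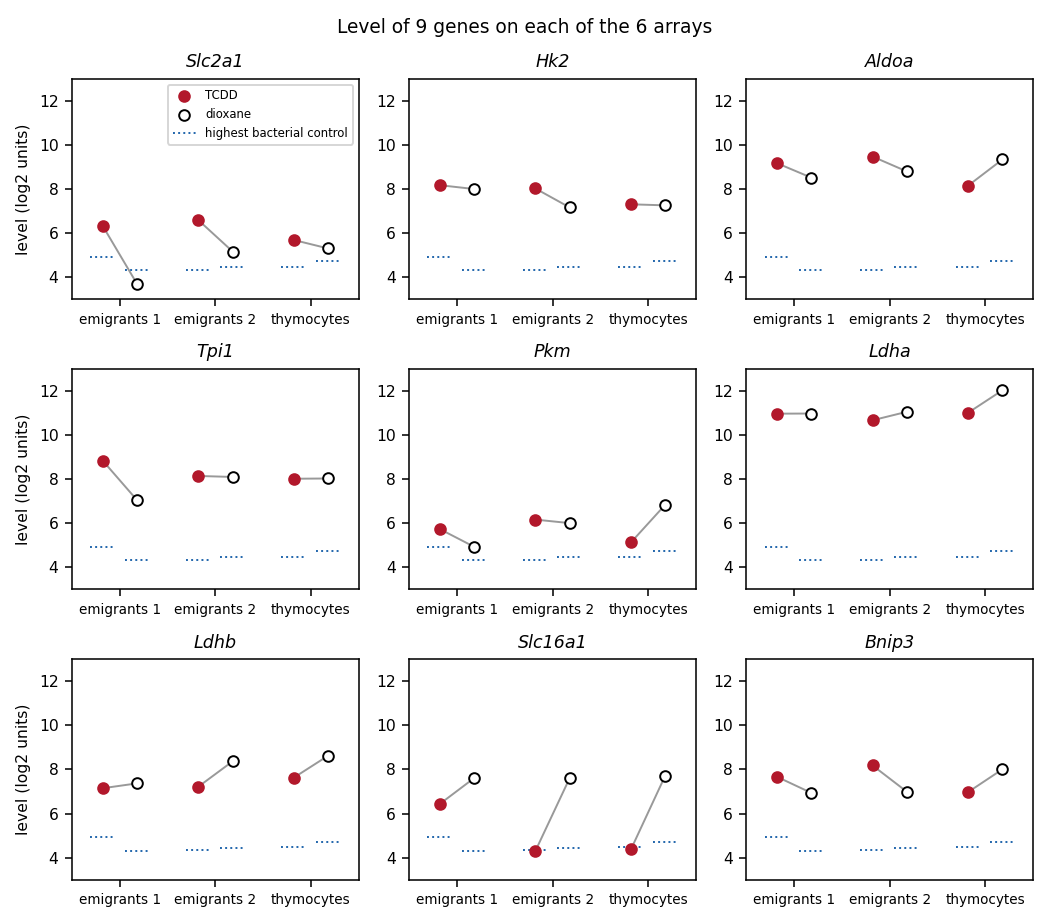
Level (log2 units, vertical axis) of 9 members on each array, chosen after their values were seen, with TCDD (filled) left of dioxane (open), a line joining each pair, and dotted marks at the highest bacterial control of the array. The Slc16a1 points with dioxane lie between 7.61 and 7.73, above all TCDD points, and the Slc2a1 points with TCDD lie between 5.68 and 6.59, above all dioxane points.

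The 14 measured glycolytic enzymes were counted pair by pair. In emigrants numbered 1, 12 of them were higher with TCDD and 2 were lower, with a median difference of 0.44. In emigrants numbered 2 the balance was 8 higher and 6 lower, with a median of 0.08. In thymocytes it was 2 higher and 12 lower, with a median of -0.40. These counts of 14, here and below, include Aldoc and Eno2, whose signs are uncertain because they were at or under the highest control on every array. The medians over all genes were -0.02 in both emigrant pairs and 0.01 in thymocytes, and 48.2%, 45.3% and 51.5% of all genes were higher with TCDD in the emigrant pairs numbered 1 and 2 and in the thymocyte pair. Gapdh, the enzyme between the aldolase and phosphoglycerate kinase steps, was read only from its 3′ control probe set and is not among the 14. It had 11.12 and 11.16 in emigrants with TCDD against 9.63 and 11.29 with dioxane, and 10.09 against 10.89 in thymocytes.

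In thymocytes, which gave 1 array per treatment and so no test, 6 members were at least 2-fold lower with TCDD (2.79% of all genes) and none was at least 2-fold higher (2.83% of all genes). They were Slc16a1, the enzymes Aldoa, Pkm, Ldha and Ldhb, and Bnip3. Pkm, pyruvate kinase, which makes pyruvate at the last step of glycolysis, had 5.13 in thymocytes with TCDD against 6.85 with dioxane. Aldoa, the aldolase that splits the 6-carbon sugar, had 8.15 against 9.34. All 4 probe sets of Aldoa shared the sign in each pair. Pgam1, phosphoglycerate mutase, lay just inside the 2-fold limit with 7.35 in thymocytes with TCDD against 8.28 with dioxane.

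Ldha and Ldhb, the subunits of lactate dehydrogenase, were lower with TCDD in every pair. Ldha had 10.98 and 10.68 in emigrants with TCDD against 10.98 and 11.06 with dioxane, and 11.02 in thymocytes with TCDD against 12.04 with dioxane. In emigrants numbered 1 its difference was -0.006. The dioxane thymocyte array stood above the other 5, which lay between 10.68 and 11.06 and overlapped between treatments. The limma difference of Ldha was -0.47 ± 0.23 (SE; adjusted p = 0.999). Without either thymocyte array it was -0.20. Ldhb had 7.15 and 7.22 in emigrants with TCDD against 7.37 and 8.37 with dioxane, and 7.63 in thymocytes with TCDD against 8.63 with dioxane. Its limma difference was -0.79 ± 0.29 (SE; unadjusted p = 0.0371, adjusted p = 0.903). The 3 other Ldhb probe sets had the opposite sign in emigrants numbered 1.

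Hk2, the inducible hexokinase that traps glucose as glucose 6-phosphate, was 8.17 and 8.02 in emigrants with TCDD against 8.00 and 7.16 with dioxane, and 7.30 against 7.26 in thymocytes. Over the 6 arrays the treatments overlapped. Pfkp, the platelet-type phosphofructokinase, was 6.52 and 7.74 in emigrants with TCDD against 5.60 and 7.07 with dioxane, and 6.99 against 6.96 in thymocytes. The second Pfkp probe set had the opposite sign in all 3 pairs.

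Tpi1, triose phosphate isomerase, had the widest enzyme difference in emigrants numbered 1, with 8.84 with TCDD against 7.05 with dioxane (3.48-fold). It was 8.15 against 8.10 in those numbered 2 and 8.02 against 8.03 in thymocytes, so that the difference stood in a single pair. Hk1, the constitutive hexokinase, had 7.74 and 6.86 in emigrants with TCDD against 7.03 and 6.69 with dioxane, and 7.12 in thymocytes with TCDD against 7.57 with dioxane. Pgk1, phosphoglycerate kinase, which makes ATP, lay between 11.84 and 12.25 on all 6 arrays in the probe set used. Another Pgk1 probe set lay between 11.18 and 12.17, with a difference of -0.77 in thymocytes. Pfkl and Pfkm, the liver and muscle phosphofructokinases, differed by between -0.52 and 0.15 in the 3 pairs in the probe sets used. The second Pfkl probe set had wider differences, 0.67 and -0.14 in emigrants numbered 1 and 2 and -1.21 in thymocytes.

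Of the regulators, Pdk1 limits the oxidation of pyruvate in the mitochondrion by phosphorylating pyruvate dehydrogenase and is a HIF1A target. It had 8.39 and 8.53 in emigrants with TCDD against 8.02 and 8.18 with dioxane, and 8.89 in thymocytes with TCDD against 8.62 with dioxane. The 3 differences were alike (0.37, 0.35 and 0.26), and the limma difference was 0.33 ± 0.15 (SE; unadjusted p = 0.0734, adjusted p = 0.981). The second Pdk1 probe set had the opposite sign in thymocytes and in emigrants numbered 1. Pfkfb3, whose product activates phosphofructokinase, was at or under the highest control on 3 arrays.

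The oxygen sensors gave no shared direction. Hif1a itself was 8.52 and 9.06 in emigrants with TCDD against 8.92 and 9.05 with dioxane, and 8.70 in thymocytes with TCDD against 8.69 with dioxane. The 3 other Hif1a probe sets had the opposite sign in thymocytes. In the brightest of them the differences were -0.07 and -0.19 in emigrants numbered 1 and 2 and -0.38 in thymocytes. Egln1, the main prolyl hydroxylase that marks HIF1A for degradation, was 7.66 and 7.55 in emigrants with TCDD against 7.44 and 7.91 with dioxane, and 8.10 against 8.61 in thymocytes. Egln3, a HIF-induced hydroxylase of the same family, was 6.06 and 7.51 in emigrants with TCDD against 5.53 and 6.81 with dioxane, but 7.04 against 7.90 in thymocytes. HIF1A is controlled mostly at the protein, which arrays do not measure.

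Among the other hypoxia targets, Bnip3, a mitochondrial protein that prompts mitophagy, had 7.67 and 8.19 in emigrants with TCDD against 6.94 and 6.99 with dioxane. In thymocytes it was 6.97 with TCDD against 8.01 with dioxane. In emigrants alone, limma called no gene (0% called, smallest adjusted p = 1) and placed 255 genes at an unadjusted p under 0.05 (2.06%). Of the members, Slc2a1 (2.03 ± 0.54, SE) and Bnip3 (0.97 ± 0.28) stood there as higher with TCDD (1.24% of all genes) and Slc16a1 (-2.25 ± 0.74) as lower (0.815%), all with an adjusted p of 1. Slc2a1 was 1.30 in this fit without emigrants with dioxane number 1, and Slc16a1 was -1.18 without emigrants with TCDD number 2. By size alone, Slc2a1 and Tpi1 were at least 2-fold higher with TCDD in emigrants numbered 1 (3.66% of all genes) and Slc16a1 and Ddit4 at least 2-fold lower (2.56%). In those numbered 2, Slc2a1 and Bnip3 were at least 2-fold higher (3.43%) and Slc16a1, Ldhb and Ddit4 at least 2-fold lower (2.16%).

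Ddit4 (REDD1), an inhibitor of mTORC1, was 8.25 and 5.81 in emigrants with TCDD against 9.30 and 6.86 with dioxane, a difference of -1.04 and -1.05. The 2 emigrant arrays of each treatment were over 2 units apart, so the groups overlapped while the pairs did not differ in sign. In thymocytes it was 8.19 against 8.38. Vegfa, the vascular growth factor, was 4.78 and 4.68 in emigrants with TCDD against 5.09 and 5.02 with dioxane, and 4.87 against 5.19 in thymocytes. The 3 TCDD arrays were all below the 3 dioxane arrays (4.61% of all genes met this), by a small step near the highest control. In the second Vegfa probe set the treatments overlapped, and the difference in emigrants numbered 2 was 0.10.

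P4ha2, a subunit of collagen prolyl hydroxylase, was 4.60 and 4.69 in emigrants with TCDD against 3.90 and 4.22 with dioxane, and 4.76 against 4.31 in thymocytes. All TCDD arrays were above all dioxane arrays, a pattern met by 3.47% of all genes. The limma difference was 0.55 ± 0.16 (SE, unadjusted p = 0.0177, adjusted p = 0.811). Since 4 of the 6 values were at or under the highest control, its size is uncertain. Genes of fibroblasts and endothelium, which make collagen, were higher with TCDD for 10 of 10 measured in the same fit, with a median of 0.55, and their part in the P4ha2 value was not tested. P4ha1, the other catalytic subunit, was 5.97 and 5.23 in emigrants with TCDD against 5.49 and 5.09 with dioxane, and 4.93 against 5.37 in thymocytes.

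Higd1a, a small mitochondrial protein of the respiratory chain, was 8.93 and 8.86 in emigrants with TCDD against 8.05 and 8.51 with dioxane, and 9.76 against 9.97 in thymocytes. Ero1a, an oxidase of the endoplasmic reticulum, and Mxi1, which antagonises MYC, had differences of both signs between the emigrant pairs in the probe sets used. The other 2 Ero1a probe sets were higher with TCDD in both emigrant pairs. In emigrants numbered 1 and 2 the differences were 0.62 and 0.72 in the brighter of them and 0.02 and 0.10 in the dimmer. Over all 18 members that are not glycolytic enzymes, the median difference was 0.24 in emigrants numbered 1 (12 higher, 6 lower), 0.26 in those numbered 2 (13 higher, 5 lower) and -0.19 in thymocytes (6 higher, 12 lower).

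**Figure D3:**
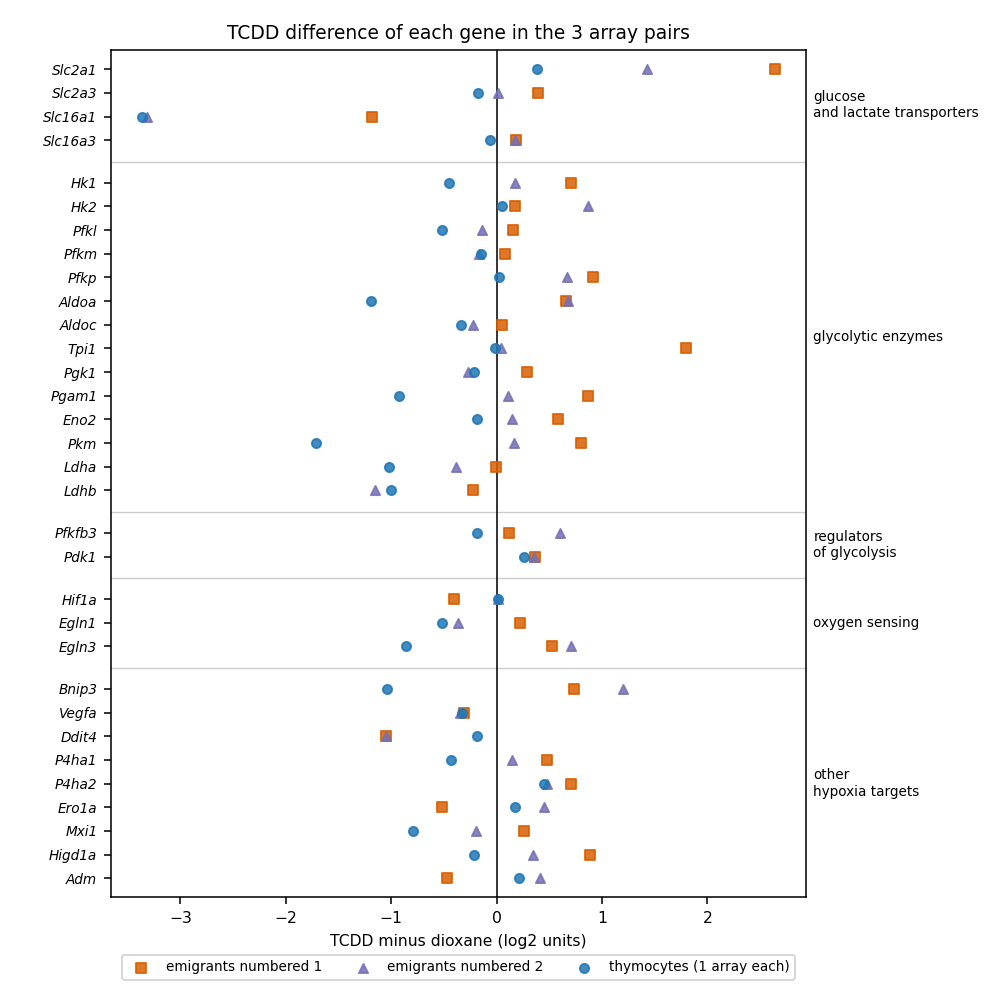
Difference in level, TCDD minus dioxane (log2 units, horizontal axis), of the 32 members in the 3 pairs of arrays, with glycolytic enzymes apart from the other genes. Most enzymes lie right of 0 in emigrants numbered 1 (12 of 14) and left of 0 in thymocytes (12 of 14), and Slc16a1 lies furthest left in all 3 pairs.

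The difference of the TCDD effect between emigrants and thymocytes was then fitted as an interaction. It was positive for all 14 enzymes, with a median of 0.66, and for 27 of 32 members, where 47.6% of all genes were positive. The 14 include Aldoc and Eno2, and the 32 also Slc16a3 and Adm, all at or under the highest control on every array. Limma called no gene (0% called), and the smallest adjusted p was 1. At an unadjusted p under 0.05 stood 97 genes (0.783%; 0.452% positive and 0.331% negative) and 3 of 32 members, all positive: Aldoa (1.86 ± 0.45, SE), Pkm (2.20 ± 0.76) and Bnip3 (2.00 ± 0.48). The comparison rests on 1 thymocyte array per treatment, and the same 2 arrays enter the difference of every enzyme. The dioxane thymocyte array was the highest of the 6 for 13 of 32 members, 7 of them enzymes, and the lowest for none. It was the highest for 16.4% of all genes and the lowest for 10.9%. Proliferation genes had a median of 7.99 in thymocytes with TCDD against 8.67 with dioxane, and DN T-lineage genes 8.47 against 9.14. In the interaction fit these lists had medians of 0.19 and -0.07. Beside the 0.66 of the enzymes, other marker lists had medians there of 1.02 for neutrophil and mast cell genes (13 of 14 positive), 0.91 for macrophage and dendritic genes (11 of 15) and 0.61 for fibroblast and endothelial genes (8 of 10). The part of any of these lists in the enzyme values was not tested.

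In 13 of 32 members the thymocyte pair went against both emigrant pairs, which 20.3% of all genes did. These were Hk1, Aldoa, Tpi1, Pgam1, Eno2 and Pkm among the enzymes, the transporters Slc2a3 and Slc16a3, and Pfkfb3, Egln3, Bnip3, P4ha1 and Higd1a. In Eno2 and Slc16a3 all values were at or under the highest control. The 2 emigrant pairs had opposite signs in 9 members, beside 46.8% of all genes.

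**Figure D4:**
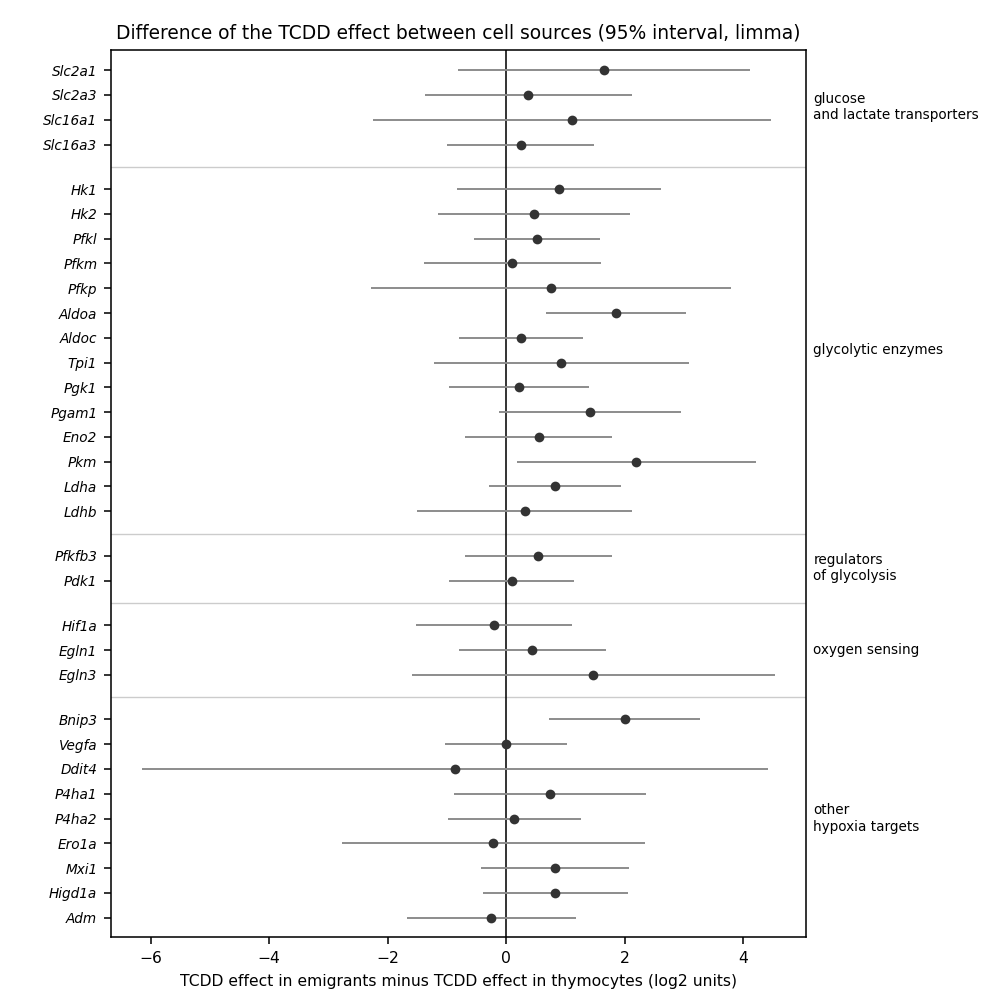
TCDD effect in emigrants minus TCDD effect in thymocytes (log2 units, horizontal axis) for each of the 32 members, as points with 95% intervals from the limma interaction fit. All 14 enzymes lie right of 0, and the unadjusted intervals of Aldoa, Pkm and Bnip3 do not reach it, while the adjusted p was 1 for every member.

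Emigrants were set against thymocytes with treatment in the model. Limma called no gene (0% called), with a smallest adjusted p of 0.165 over all genes and 0.396 among the members. At an unadjusted p under 0.05 stood 880 genes (7.1%; 3.2% higher and 3.9% lower in emigrants) and 4 of 32 members, Slc2a3, Pdk1, Egln1 and Higd1a, all lower in emigrants. With Aldoc, which is at or under the highest control, these were also the 5 members whose 4 emigrant values all lay below both thymocyte values (10.8% of all genes did). The second probe sets of Egln1, Pdk1 and Slc2a3 did not repeat this. For Egln1 that probe set had 4.60 and 4.92 in emigrants with TCDD and 4.34 and 4.92 with dioxane, against 4.47 and 4.63 in thymocytes with TCDD and dioxane. For Pdk1, emigrants with TCDD number 2 had 8.68, above both thymocyte values. For Slc2a3, emigrants with TCDD number 1 had 7.70, above the 7.58 of thymocytes with dioxane. No member had all 4 above (5.46% of all genes did).

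Higd1a had 8.93 and 8.86 in emigrants with TCDD and 8.05 and 8.51 in emigrants with dioxane, against 9.76 and 9.97 in thymocytes with TCDD and dioxane. Its limma difference was -1.28 ± 0.26 (SE; unadjusted p = 0.00339, adjusted p = 0.396). Egln1 differed by -0.71 ± 0.22, Slc2a3 by -0.85 ± 0.30 and Pdk1 by -0.48 ± 0.16 (SE), with adjusted p between 0.569 and 0.639 in limma. The emigrant arrays that gave these values also held 15 of 15 macrophage and dendritic genes above thymocytes, by a median of 2.60, and 11 of 13 DN T-lineage genes below them, by a median of -1.68. The part of this shift in the 4 genes was not tested.

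The same contrast was also read within each treatment. With TCDD, the median over the 14 enzymes was 0.47 for emigrants numbered 1 and 0.00 for those numbered 2. With dioxane, 12 of 14 enzymes were lower in each emigrant array than in thymocytes, with medians of -0.69 and -0.32. Over all members, 18 and 17 of 32 were higher in emigrants with TCDD, and 23 and 27 of 32 were lower in emigrants with dioxane. Of all genes, 46.3% and 38.9% were higher in emigrants numbered 1 and 2 with TCDD, and 50.1% and 41.5% with dioxane, so the arrays numbered 2 leaned lower in general. The TCDD contrasts share the 1 TCDD thymocyte array, and the dioxane contrasts share the 1 dioxane thymocyte array. For Pkm, emigrants minus thymocytes was 0.61 and 1.04 with TCDD, and -1.92 and -0.84 with dioxane.

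**Figure D5:**
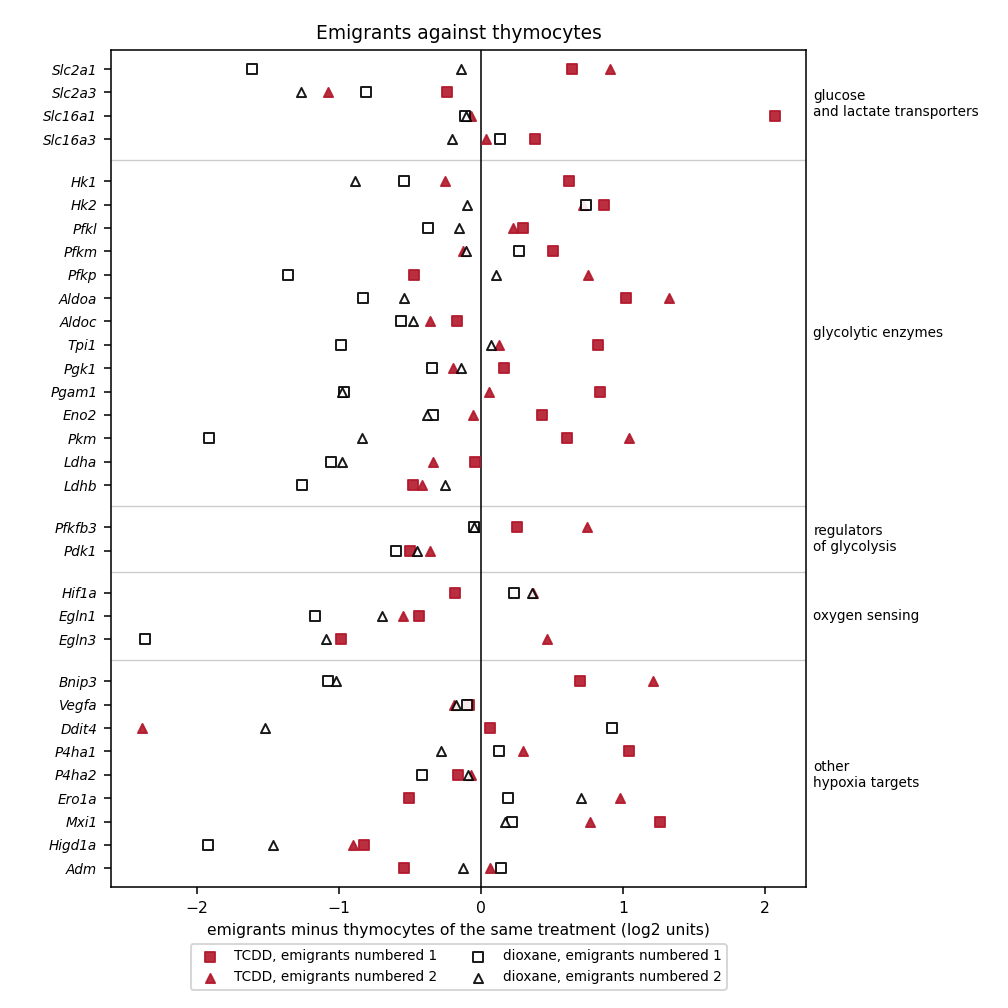
Difference in level, emigrants minus thymocytes (log2 units, horizontal axis), of the 32 members for each emigrant array against the thymocyte array of the same treatment. Higd1a lies left of 0 in all 4 differences, and most enzymes with dioxane lie left of 0 (12 of 14 for each emigrant array).

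Other genes of the same pathways were read from lists, and none of them passed in any of the 4 fits. With TCDD over both sources, 9 of 13 measured glycolysis genes outside the list were higher and 4 lower, with a median of 0.06. Of 26 other hypoxia-inducible genes 11 were higher and 15 lower (median -0.03), of 11 genes of the HIF and VHL machinery 3 were higher and 8 lower (-0.17), and of 9 genes for pyruvate entry to mitochondria 3 were higher and 6 lower (-0.09). The 7 measured genes of the pentose phosphate pathway, which branches from glucose 6-phosphate to make NADPH, split 3 to 4 (-0.03). The median over all genes was -0.02. Ndrg1, a stress gene that hypoxia induces, was 6.93 and 5.90 in emigrants with TCDD against 6.14 and 7.96 with dioxane, and 7.01 against 8.91 in thymocytes. It thus had no common sign. Arnt, Vhl and Epas1 were at or under the highest control on at least 5 of the 6 arrays, so that the shared partner of HIF1A and AHR could not be compared.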

How the data were processed

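RNA of pooled DN cells was amplified (Ambion kit) and hybridised to 1 Affymetrix array per sample, per the labels' protocols. The authors deposited log2 values, RMA summaries per the submitters' processing notes, made with the Bioconductor affy package per the series' design text; the sources used here name no versions. RMA values carry no detection call, and differences of dim genes come out too small. The number of arrays limits the precision.

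Of 22690 probe sets, 64 controls, 691 with several genes and 1555 with none were left out. Each gene took its single-gene probe set of highest mean; 4956 genes had more than 1. The limma package (3.58.1, with R 4.3.3) supplied the tests through lmFit and eBayes, with Benjamini-Hochberg adjustment over 12393 genes and calls at an adjusted p under 0.05. A lone array is assumed to vary like the others. Code was tested on simulated data. Any member could be named. Other genes were named from a fixed list, except Taldo1, Pgd and Rpe, which were chosen after their values were seen. The members and lists were chosen with earlier results of these data known. Alternatives covered normalisation, filters, probe sets, covariates, the array number as a block and omission of arrays.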

Additional observations from a re-analysis of the deposited data

Results flagged for a closer look

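In 13 members the thymocyte pair had one sign and both emigrant pairs the other, and this opposition drew attention to them. The difference of the TCDD effect, emigrants minus thymocytes, was 2.20 log2 units for Pkm, 2.00 for Bnip3, 1.86 for Aldoa, 1.47 for Egln3, 1.42 for Pgam1, 0.93 for Tpi1 and 0.90 for Hk1. It was 0.83 for Higd1a, 0.75 for P4ha1, 0.55 for Eno2, 0.55 for Pfkfb3, 0.38 for Slc2a3 and 0.24 for Slc16a3. None passed the limma interaction test, in which each adjusted p was 1. Over all genes 20.3% showed such an opposition. Eno2 and Slc16a3 were at or under the highest bacterial control on all arrays.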

How the results depend on the processing

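No member was called under any alternative. The smallest adjusted p of a member in limma was 0.768 in emigrants and 1 for the difference of effects. For TCDD over both sources and for emigrants against thymocytes it came without both emigrant arrays numbered 1. That omission was chosen after the data were seen and left 1 array per group, so its adjusted p is not given. No member at an unadjusted p under 0.05 in a main limma fit changed its sign in that comparison under any alternative. Nor did those at least 2-fold apart in thymocytes, in the thymocyte difference. Weaker differences could change sign. Pkm with TCDD over both sources was -0.25 with all arrays and 0.48 without either thymocyte array. Emigrants against thymocytes gave 0 genes called, but 7 without emigrants with dioxane number 2 and 225 without both emigrant arrays numbered 2, an omission chosen after the data were seen. Genes at least 2-fold apart in thymocytes numbered 697, and 448 with the mean of each gene's probe sets. The median of the members that are not enzymes was 0.19 in emigrants, 0.21 after cyclic loess and 0.14 with the mean of probe sets. For the difference of effects it was 0.41, against 0.43 after median centring, 0.38 after cyclic loess, 0.32 after quantile normalisation, 0.75 with dim genes left out (those below the median level) and 0.31 with the mean of probe sets.

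Leaving out each array in turn moved the enzyme median between -0.21 and 0.40 for TCDD over both sources, between 0.054 and 0.27 in emigrants, between -0.57 and 0.19 for emigrants against thymocytes and between 0.48 and 0.77 for the difference of effects. For the other members the ranges were -0.03 to 0.19, 0.14 to 0.23, -0.20 to -0.012 and 0.28 to 0.48. With all arrays the medians were -0.02 for TCDD over both sources and, for emigrants against thymocytes, -0.19; in emigrants and for the difference of effects they were 0.40 and 0.66. Without either thymocyte array the 0.40 comes from emigrants alone, -0.21 arose without emigrants with TCDD number 1, -0.57 without thymocytes with TCDD and 0.19 without thymocytes with dioxane.

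No label says that emigrant arrays of the same number are paired, and 2 pairs are too few to test it. Their values were more alike by number than by treatment. Arrays of the same number correlated across genes at 0.958 (number 1) and 0.965 (number 2), and arrays of the same treatment at 0.932 (TCDD) and 0.921 (dioxane). Deviations of same-numbered arrays correlated across genes at 0.56. The main fits did not use the number. With the replicate number as a block, 0 genes were called over both sources and 0 in emigrants, and 1334 and 725 genes stood at an unadjusted p under 0.05, against 659 and 255 without it.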

Other observations

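Taldo1 and Pgd, enzymes of the pentose phosphate pathway chosen after their values were seen, were higher with TCDD in both emigrant pairs. Rpe, of the same pathway and also chosen in this way, was lower with TCDD in each pair. Taldo1, transaldolase, was 8.55 and 8.23 in emigrants with TCDD against 7.16 and 7.51 with dioxane, and 7.01 in thymocytes with TCDD against 6.22 with dioxane. Pgd, which makes NADPH, was 10.53 and 9.71 in emigrants with TCDD against 9.48 and 8.83 with dioxane, and 8.96 against 9.26 in thymocytes. Macrophage and dendritic genes were also higher with TCDD in emigrants (14 of 15 measured, median 1.20), and their part in these values was not tested.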
